A study of Mus musculus with 4 samples.

Results

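The small leucine-rich proteoglycans (SLRPs) were followed in mouse embryonic fibroblasts through 10 genes: Dcn, Bgn, Aspn, Lum, Fmod, Kera, Prelp, Omd, Epyc and Ogn. They were taken by symbol from the 27745 gene names on the arrays and are read by 14 probes, of which Dcn, Bgn, Epyc and Prelp have 2 each. The family was selected after its density effect had been seen in these same arrays, where Lum and Dcn were among the largest rises, so every value below that comes from a density or genotype contrast is a description and carries no test. The brightest probe stands for each gene unless the other probe is named.

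Fibroblasts of C57BL/6J mice were labelled Lats2-/- (KO) or Lats2+/+ (WT), Lats2 being a kinase of the Hippo pathway, through which crowded cells hold back the coactivators YAP and TAZ. Each genotype was grown at low density, collected subconfluent at 48 hours, and at high density, collected at 3 to 5 days, so that time in culture and density cannot be told apart. Both cultures of a genotype were hybridised together on 2 Agilent 2-colour arrays with the dyes exchanged, which gave 4 arrays, 8 channels and 1 replicate per genotype. Whether the second array of each pair was made from the RNA of the first is not given in the labels. The WT arrays were on 1 slide and the KO arrays on 2 others, so slide and genotype cannot be told apart in any KO over WT value.

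SLRPs are secreted core proteins built of leucine-rich repeats, most of which carry chondroitin, dermatan or keratan sulfate chains. They bind fibrillar collagen and set the width and spacing of its fibrils, and several also bind growth factors such as TGF-beta. Fibroblasts of skin, tendon and cornea are a main source of them. The family is divided into classes by sequence: Dcn, Bgn and Aspn belong to class I, Lum, Fmod, Kera, Prelp and Omd to class II, and Epyc and Ogn to class III.

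Before the values, the identity of the cultures was checked. Of 10 fibroblast markers, 8 were well above background in all 8 channels, whereas 4 of 6 endothelial markers and 3 of 6 epithelial markers were above background in none. The other epithelial markers were well above background in all 8 channels (Krt14) or in 2 (Krt5 and Krt18). The other endothelial markers were so in 2 channels (Kdr) and 1 (Tek). Of 4 Lats2 probes, 3 read higher on the arrays labelled KO at both densities and 1 read lower. The 3 probes that read higher lie within 1.23 kb and the other 31.2 kb away, and since the part of the gene that was deleted is not given in the sources used here, probes outside it check nothing. The study presents a western blot of Lats2 protein in its Lats2 KO fibroblasts as its check that the gene was knocked out, in the direction of the labels. Whether the blotted cells were those on these arrays is not given in the sources used here, and that blot was not analysed here. The genotype names stand for labels, and each direction between genotypes rests on them. Per channel, 52.8% to 67.7% of features passed the scanner software's test for being well above background. The arrays of a pair deviated from their mean by an SD over all probes tested of 0.0987 (density effect in WT) to 0.149 (genotype difference at high density) on the log2 scale. This spread covers technical error only.

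The genes lie in 3 groups and 1 single locus. In build mm8, which the array annotation uses, the probes of Dcn, Lum, Kera and Epyc follow each other over 201 kb of chromosome 10, those of Aspn, Omd and Ogn over 57.1 kb of chromosome 13, and those of Prelp and Fmod over 137 kb of chromosome 1. Bgn is on chromosome X. RefSeq promoter windows of GRCm38.p6, from 250 bases before to 50 after the start, were matched for 8 of the 10 genes; for Lum and Dcn none was matched. Printed here are Kera from the chromosome 10 group, the whole chromosome 13 group, whose 3 genes were all higher on the KO arrays, and Bgn, the gene that did not reach a 2-fold rise in either genotype. Capitals mark the TATA box letters TATAAA, the CCAAT box letters (CCAAT), the GC box core GGGCGG, the TEAD motif GGAATG, the AP-1 motif TGANTCA and the SMAD motif CAGACA, each on either strand.
Kera (chr10:97606955-97607254, plus strand): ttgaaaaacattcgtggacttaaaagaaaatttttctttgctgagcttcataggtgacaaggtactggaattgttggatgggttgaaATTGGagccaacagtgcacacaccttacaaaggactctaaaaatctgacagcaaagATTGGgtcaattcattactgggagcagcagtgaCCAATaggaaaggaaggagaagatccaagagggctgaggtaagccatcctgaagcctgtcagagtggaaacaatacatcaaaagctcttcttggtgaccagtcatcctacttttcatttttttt
Aspn (chr13:49544193-49544492, plus strand): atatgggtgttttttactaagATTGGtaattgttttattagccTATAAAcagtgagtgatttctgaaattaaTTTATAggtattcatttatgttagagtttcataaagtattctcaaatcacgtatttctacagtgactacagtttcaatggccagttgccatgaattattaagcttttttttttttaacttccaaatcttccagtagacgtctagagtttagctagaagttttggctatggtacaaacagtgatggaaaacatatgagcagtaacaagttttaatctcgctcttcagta
Omd (chr13:49582212-49582511, plus strand): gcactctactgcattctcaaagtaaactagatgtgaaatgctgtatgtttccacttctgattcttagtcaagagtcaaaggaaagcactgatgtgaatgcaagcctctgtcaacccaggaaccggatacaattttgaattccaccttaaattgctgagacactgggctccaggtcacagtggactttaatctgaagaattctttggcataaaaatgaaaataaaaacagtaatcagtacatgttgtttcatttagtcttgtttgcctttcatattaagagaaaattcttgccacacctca
Ogn (chr13:49607765-49608064, plus strand): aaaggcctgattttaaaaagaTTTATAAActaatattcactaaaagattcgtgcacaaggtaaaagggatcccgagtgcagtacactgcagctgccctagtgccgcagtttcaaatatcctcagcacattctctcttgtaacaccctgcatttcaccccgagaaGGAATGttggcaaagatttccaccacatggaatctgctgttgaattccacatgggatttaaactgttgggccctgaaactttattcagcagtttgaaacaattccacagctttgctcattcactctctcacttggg
Bgn (chrX:73483351-73483650, plus strand): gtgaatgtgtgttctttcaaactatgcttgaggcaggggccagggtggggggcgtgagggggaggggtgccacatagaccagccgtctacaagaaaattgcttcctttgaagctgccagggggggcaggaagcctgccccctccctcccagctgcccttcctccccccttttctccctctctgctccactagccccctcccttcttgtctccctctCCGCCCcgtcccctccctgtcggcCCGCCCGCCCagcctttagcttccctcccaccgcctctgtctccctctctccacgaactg
The Bgn window was the richest in G and C, at 63.7% with 9 CG pairs, against 42.3% or less in the other 4 windows printed and a median of 52.7% over all 32851 promoter windows. It was also the only member window with GGGCGG, which occurs in 35.7% of all windows. CCAAT stood in 4 of the 9 member windows (Epyc has 2 starts) against 37.4% of all windows. TATAAA was present in Ogn and Aspn, at 13.6% of all windows, and the 2 matches in Ogn overlap each other on opposite strands. GGAATG stood in Ogn and in the second Epyc window, at 14.7% of all. CAGACA was found in Prelp alone (21.0% of all), and TGANTCA in no member window (7.81% of all). CANNTG, the E box, was in 7 member windows and in 72.3% of all. These are matches of letters, not binding sites.

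At high density 8 of the 10 genes rose in each genotype, and they were not the same 8. Counts below take a gene as changed from 2-fold on, that is, from a mean log2 ratio of 1 in either direction, if its 2 arrays had the same sign. In WT, 8 genes were counted as higher at high density and 0 as lower, where 9.41% of all 14875 genes tested were higher and 6.09% lower. In KO, 8 of 10 were again higher and 0 lower, against 7.15% higher and 3.88% lower of 15440 genes. The median log2 ratio of the 10 genes was 3.46 in WT and 3.43 in KO, beside 0.059 and 0.056 over all genes tested. Median centring of each array in place of loess moved the median of all genes to -0.049 and -0.081, and the share of higher among all changed genes from 60.7% to 47.1% in WT and from 64.8% to 42.8% in KO, with 9 and 8 SLRP genes then counted as higher. Since the family was selected on this contrast, the gap from all genes is not independent evidence. The 2 genes outside the count differed between genotypes: Bgn and Omd in WT, Bgn and Fmod in KO. Just outside the threshold was Omd in WT, at 0.94 and 1.05 on the 2 arrays, and the nearest inside it among genes measured at both densities were Prelp in KO, at 1.71 and 1.64, and in WT Fmod, at 2.73 and 3.0. Kera in WT, at background at low density, has only its bound of at least 2.82-fold. Omd in WT passed as well without WT replicate 1, at 1.01 after median centring, at 1.39 with a normexp offset of 16 and at 2.17 on Agilent's processed signals. Kera and Epyc in both genotypes, and Aspn in WT, were not well above background at low density and were tested on their high density side alone. Requiring every channel to be well above background left 7 genes in WT, 5 of them higher, beside 1237 of 13486 genes. In KO it left 8 genes, 6 of them higher, beside 1034 of 14152 genes.

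**Figure D1:**
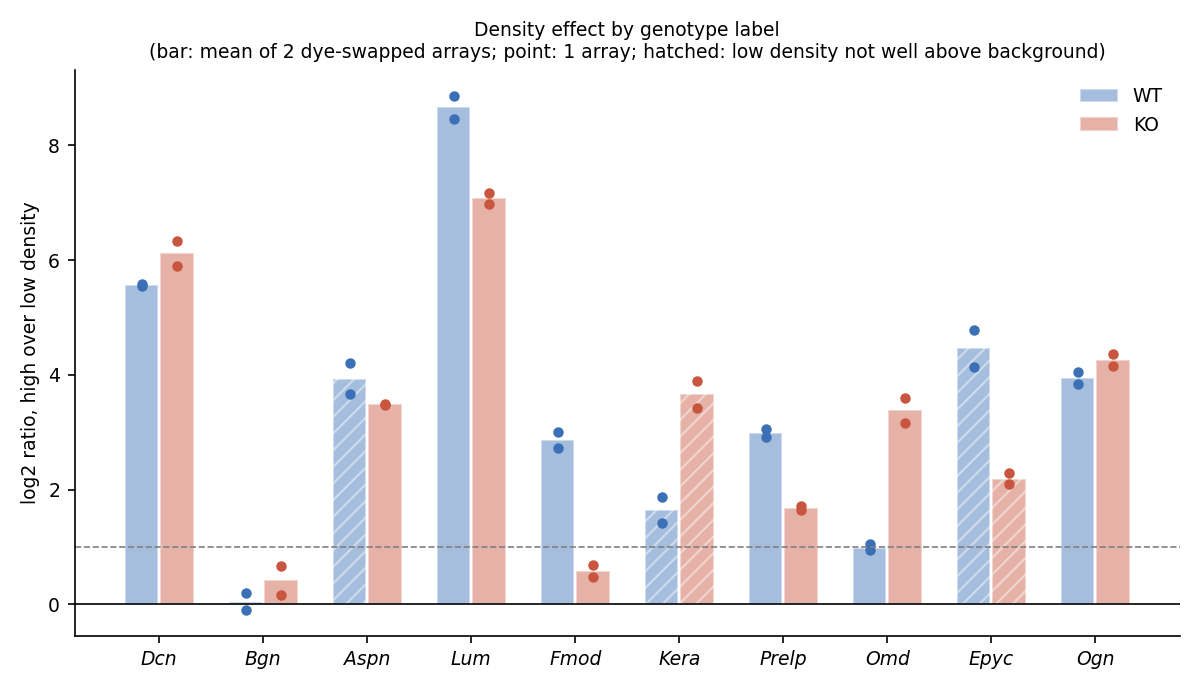
Log2 ratio of high over low density for each gene in the cultures labelled WT and KO; bars are means of 2 dye-swapped arrays, points single arrays, the dashed line a 2-fold rise, and hatching marks genes whose low density signal was not well above background, for which the bar is not a measured fold. Bgn stays near 0 in both genotypes, the bar of Fmod is taller in WT (2.86 against 0.58), and that of Omd in KO (3.38 against 0.99).

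Among class I genes, Dcn encodes decorin, which binds the collagen fibril surface and TGF-beta. On the normalized log2 intensity scale it read 8.62 (Cy3) and 8.83 (Cy5) in WT at low density and 14.42 and 14.16 at high density, a 47.4-fold rise. In KO it read 10.95 and 12.36 at low density and 18.26 and 17.29 at high density, a 69.5-fold rise. The 4 cultures do not overlap, and their order was WT low, KO low, WT high, KO high. The low density KO channels were 1.41 apart, wider than in the other cultures, which leaves the genotype difference at low density between 2.33 and 3.53 by dye. The second Dcn probe, 36.9 kb upstream, was dim. It was well above background on both KO high density channels but on neither KO low density channel, which gives a rise of at least 6.79-fold in KO. In WT it was so on only 1 of 2 high density channels and on neither low density channel. Its WT density effect of 0.33 on the log2 scale thus rests on background signals. With the mean over both probes the density effect of Dcn was 2.95 in WT in place of 5.57 and 4.49 in KO in place of 6.12, and the low density genotype difference 1.48 in place of 2.93. After median centring the density effect was 5.33 in WT and 5.46 in KO.

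Bgn encodes biglycan, the closest relative of decorin. It read 11.87 and 11.57 in WT at low density and 11.76 and 11.77 at high density, so the WT cultures overlap. In KO it read 13.09 and 12.73 at low density and 13.39 and 13.25 at high density, with log2 ratios of 0.17 and 0.67. The KO channels thus did not overlap between densities, but their difference was under the threshold, whereas between genotypes the KO arrays exceeded the WT arrays 2.28-fold at low density and 2.94-fold at high density. The second Bgn probe gave genotype differences of 0.89 and 1.14 on the log2 scale, and density effects of -0.34 in WT and -0.084 in KO.

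Aspn encodes asporin, a class I protein with an aspartate-rich stretch that competes with decorin for collagen. At low density it was not well above background in either WT channel (6.51 and 5.69), while the KO channels read 10.44 and 10.63. Hence Aspn was at least 19.4-fold higher on the KO arrays at low density. At high density WT read 9.89 and 10.18 and KO 14.11 and 13.94, a 15.9-fold difference. The rise with density was at least 13.7-fold in WT and 11.2-fold in KO. Even the KO low density culture stood above the WT high density culture.

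Lum and Fmod, of class II, encode lumican and fibromodulin, which share a binding site on collagen and carry keratan sulfate in some tissues. Lum read 6.84 and 6.39 in WT at low density and 15.25 and 15.29 at high density, a 404-fold rise, the highest mean ratio of the 14875 genes tested. In KO it read 6.93 and 6.54, then 13.71 and 13.91, a 135-fold rise and again the highest of all genes tested. Its low density signals were close to the lowest well-above-background signal (6.32 for Cy3 and 6.01 for Cy5 in WT), so the size depends on the background correction: the log2 rise was 8.66 in WT and 7.08 in KO here, and 10.33 and 8.20 on processed signals. The low density cultures of both genotypes overlap, whereas at high density Lum was 2.76-fold lower on the KO arrays. Fmod read 7.82 and 7.36 in WT at low density and 10.36 and 10.55 at high density, a 7.28-fold rise. In KO it read 8.43 and 8.06, then 8.75 and 8.90, a ratio of 1.5-fold, under the threshold. At low density KO over WT was 1.57-fold, also under it, and at high density Fmod was 3.09-fold lower on the KO arrays.

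Kera encodes keratocan, the corneal keratan sulfate proteoglycan. It was not well above background at low density in either genotype and was measured on all high density channels, at 7.59 and 7.81 in WT and 9.47 and 9.68 in KO. The rise was at least 2.82-fold in WT and at least 10.6-fold in KO, and at high density KO was 3.66-fold above WT. Prelp encodes a proline- and arginine-rich protein that anchors basement membranes. It read 9.02 and 9.21, then 12.11 and 12.08 in WT, a 7.89-fold rise, and 11.17 and 11.44, then 13.08 and 12.89 in KO, a 3.20-fold rise. With the mean over both probes its density effect on the log2 scale was 1.57 in place of 2.98 in WT and 0.85 in place of 1.68 in KO, the latter under the threshold, and its low density genotype difference 1.21 in place of 2.19. The KO arrays exceeded the WT arrays 4.58-fold at low density in Prelp and 1.86-fold at high density, the latter under the threshold. Its second probe was near background throughout.

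Omd encodes osteomodulin, a keratan sulfate proteoglycan of bone. It read 6.76 and 6.54 in WT at low density and 7.58 and 7.70 at high density. In KO it read 9.35 and 9.58, then 12.74 and 12.95, a 10.4-fold rise. Omd had the widest genotype difference of the 10 genes at high density, 36.7-fold, and its low density difference was 7.04-fold in the same direction. Every KO channel was above every WT channel.

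Of the class III genes, Epyc encodes epiphycan, known from growth cartilage. It was not well above background at low density in either genotype, and at high density read 10.57 and 10.84 in WT but 8.02 and 8.28 in KO. Its rise was at least 20.4-fold in WT and at least 4.03-fold in KO, and the KO arrays were 5.87-fold lower at high density. The second Epyc probe gave bounds of 6.29-fold in WT and 1.89-fold in KO. Ogn encodes osteoglycin, also called mimecan, which takes part in collagen fibril assembly. It read 11.00 and 11.29, then 15.14 and 15.05 in WT, a 15.4-fold rise, and 12.18 and 12.81, then 16.96 and 16.55 in KO, a 19.2-fold rise. Its genotype difference was 2.54-fold at low density and 3.16-fold at high density, higher on the KO arrays. After median centring the log2 density effect of Ogn was 3.68 in WT in place of 3.95, and 3.64 in KO in place of 4.26.

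**Figure D2:**
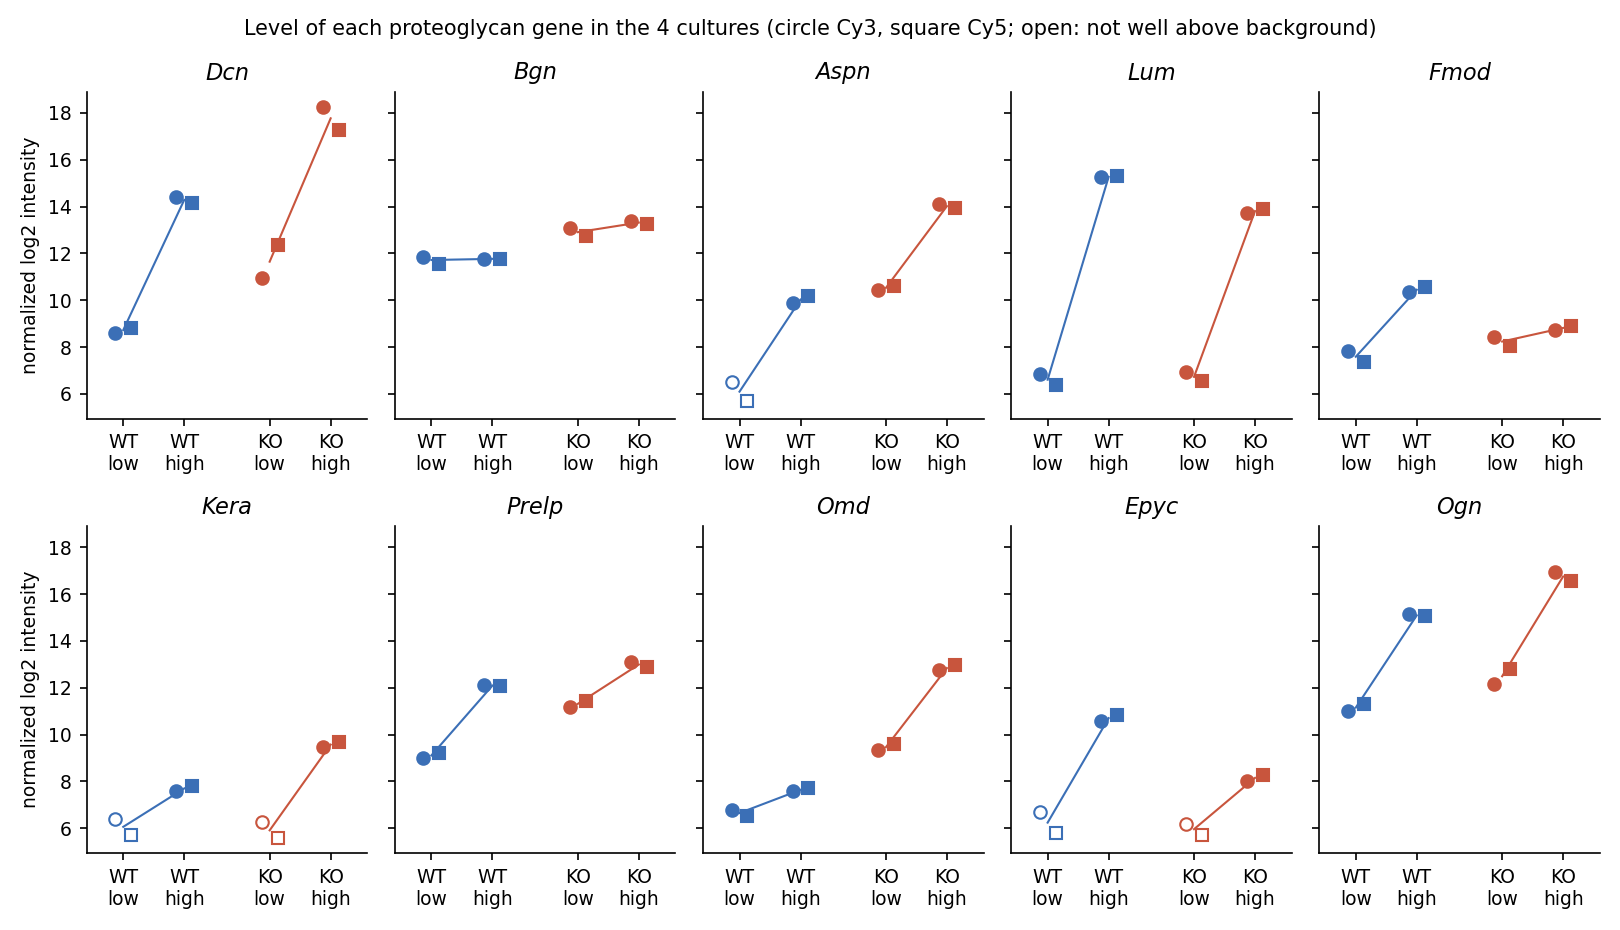
Normalized log2 intensity of each gene in the 4 cultures, with circles for Cy3, squares for Cy5, lines joining the means of 2 channels, and open symbols for channels not well above background; heights may be compared within a panel but not between panels, which show different probes. In Omd and Aspn both KO cultures lie above both WT cultures, in Bgn the lines are nearly flat, and in Lum, Fmod and Epyc the KO line ends below the WT line.

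Set side by side, the genotype differences at low density pointed upward and at high density split. At low density 8 genes were tested, since Kera and Epyc were not well above background on either side. Of these, 6 were higher on the KO arrays (Dcn, Bgn, Ogn, Omd, Aspn and Prelp) and 0 lower, where 7.32% of all genes tested were higher and 8.36% lower. Lum and Fmod, at 0.12 and 0.65 on the log2 scale, were in neither count. At high density 6 of 10 were higher (Dcn, Kera, Bgn, Ogn, Omd and Aspn) and 3 lower (Lum, Epyc and Fmod), against 6.75% and 7.78% of all genes. Subtracting the WT density effect from that in KO left 2 genes at least 2-fold upward and 4 downward, where 4.56% and 4.98% of all genes were so counted. Among genes measured in all channels these were Omd upward (2.38 on the log2 scale) and Lum (-1.58), Fmod (-2.28) and Prelp (-1.30) downward. On processed signals Omd was at 1.30, and with the mean over probes Prelp was at -0.72 and under the threshold. Kera (2.02, counted upward) and Epyc (-2.27, counted downward) were not well above background at low density, so their differences rest on background signals and became 2.79 and -1.43 on processed signals. Dcn, Bgn and Ogn differed by 0.55, 0.37 and 0.32, and Dcn by 1.54, counted as higher, with the mean over probes. Aspn, with its WT low density side not well above background, was at -0.44, but at -1.49 with a normexp offset of 16 and at -3.90 on processed signals, where it was counted as lower. The density effect difference is the same quantity as the change of the genotype difference between densities, so these counts and those before them are not independent. With no scaling between arrays the median of all genes moved from 0.029 to 0.27 at low density and from 0.027 to 0.27 at high density, while the share of higher among all changed genes moved from 46.7% to 69.1% and from 46.4% to 66.6%. Prelp was then also counted as higher at high density, and the other calls of SLRP genes in these contrasts were the same.

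On chromosome 10 the genotype difference changed sign from each gene to the next. In the order Dcn, Lum, Kera, Epyc on chromosome 10, the log2 differences KO over WT at high density were 3.48, -1.46, 1.87 and -2.55. All 4 nevertheless rose with density in both genotypes. On chromosome 13 Aspn, Omd and Ogn were all higher on the KO arrays, at 3.99, 5.20 and 1.66. On chromosome 1 Prelp was at 0.89 and Fmod at -1.63.

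Within 1 Mb of the 10 genes lay 106 others, among them Optc and Ecm2, which are also SLRP genes. Of these, 5 of 67 tested were higher with density in WT and 4 lower, and 5 of 65 were higher in KO and 3 lower. Over all genes tested these shares were 9.41% and 6.09% in WT and 7.15% and 3.88% in KO. Ecm2, itself a leucine-rich repeat gene 36.8 kb from Aspn, was well above background on both WT high density channels and at least 1.88-fold over WT low density. Nol8, 40.6 kb beyond Ogn, gave -0.85 in WT and -0.78 in KO. Optc, which encodes the SLRP opticin and lies 8.29 kb from Prelp, was above background in no channel, and the same held for 4921510H08Rik next to Epyc and 4930473O22Rik within the chromosome 10 group. Btg1, 861 kb before Dcn, gave log2 density effects of 1.16 for WT and 1.57 for KO, both counted as higher. Btg2, 28.0 kb beyond Fmod, gave 0.44 in WT and -1.26 in KO, and on the X chromosome Uchl5ip, 45.9 kb from Bgn, gave -0.25 and -0.63. Atp2b3, on the other side of Bgn, was not tested in either density contrast.

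**Figure D3:**
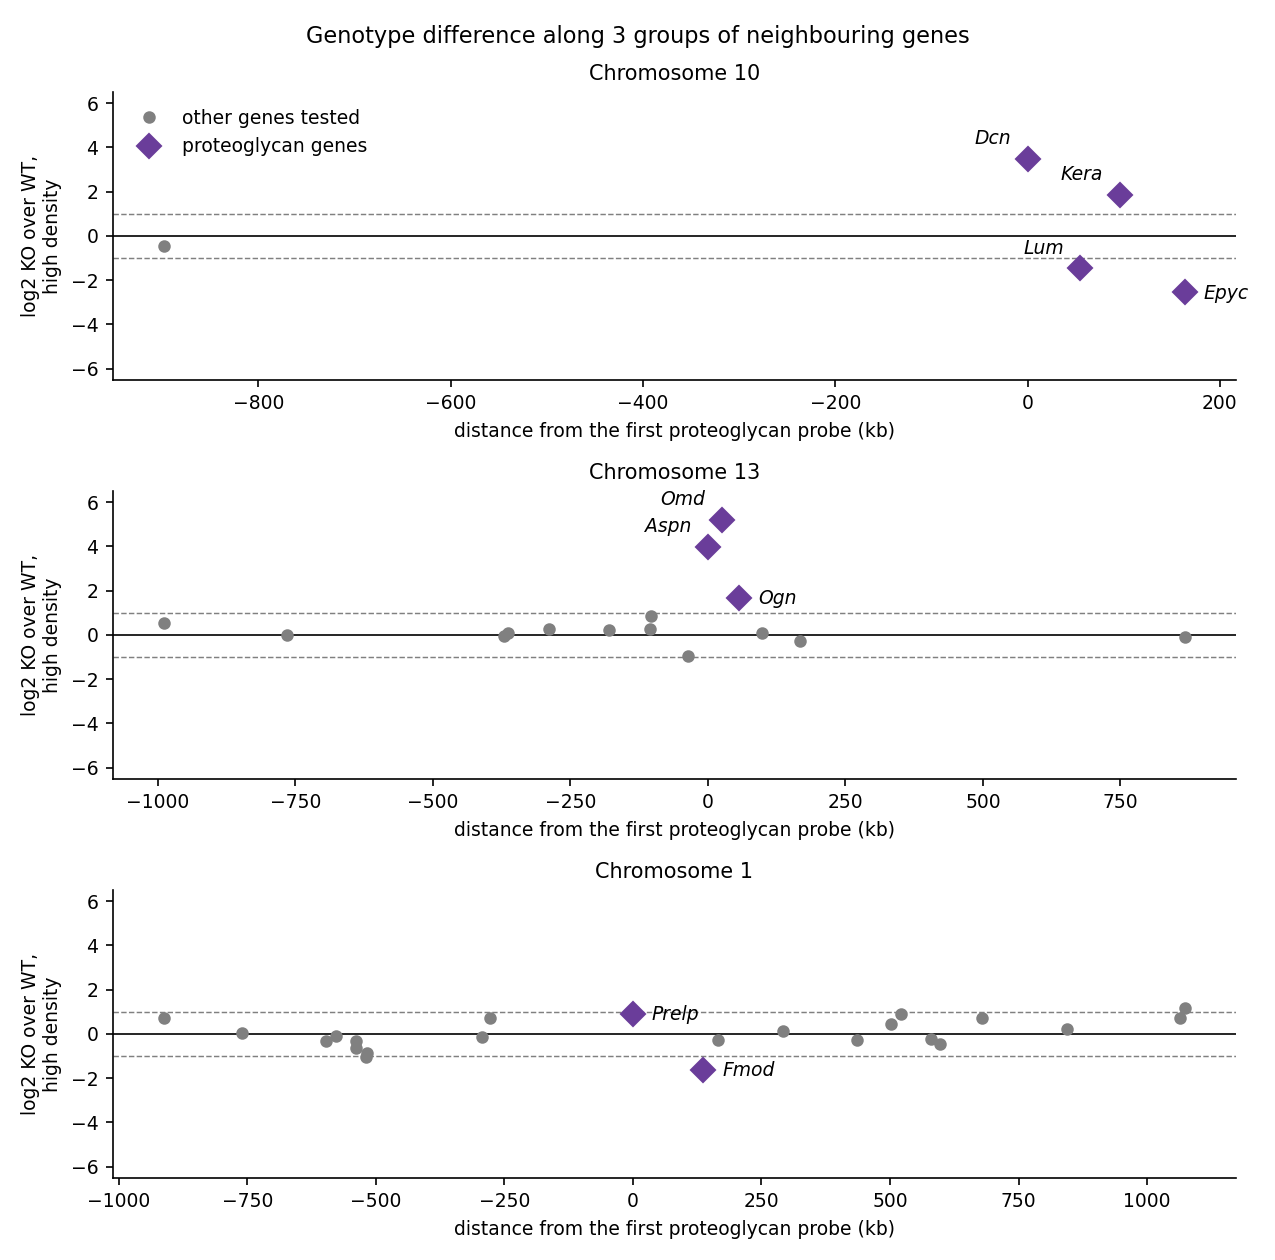
Log2 ratio of KO over WT at high density for the SLRP genes (diamonds) and other genes tested within 1 Mb (circles), by distance in kb from the first SLRP probe of each group; dashed lines mark 2-fold. On chromosome 10 the signs alternate from Dcn (3.48) to Epyc (-2.55), while the 3 genes on chromosome 13 all lie above the line (1.66 to 5.20).

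Of 7 other SLRP genes listed (Optc, Nyx, Chad, Podn, Podnl1, Tsku and Ecm2), 4 were tested in WT with 0 higher and 0 lower, and 3 in KO with 0 higher and 1 lower (Podnl1, -1.47). The shares over all genes were 9.41% higher and 6.09% lower in WT, and 7.15% and 3.88% in KO. Podnl1 was higher on the KO arrays at low density, by 1.54, and Podn, podocan, at high density, by 1.04.

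Collagens that SLRPs bind rose in part. In WT 5 of 12 were higher with density and 1 lower (median log2 ratio 0.53), and in KO 9 of 12 were higher and 0 lower (median 1.88). Of all genes tested, 9.41% were higher and 6.09% lower in WT, and 7.15% and 3.88% in KO. Col3a1, collagen III of young fibrils, rose by 4.14 in WT and 3.44 in KO. Col14a1, a collagen on the fibril surface, rose at least 5.18-fold in WT and 5.38-fold in KO. The chains of collagen I gave 0.50 (Col1a1) and 0.56 (Col1a2) in WT, both under the threshold, and rose by 2.16 and 2.25 in KO. Col5a1, which limits fibril width, fell by 1.13 in WT and rose by 1.29 in KO. Col2a1, the cartilage collagen, rose by 2.86 in KO and gave -0.48 in WT, with a genotype difference of -3.22 at low density.

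Of 20 tested genes of the enzymes that build chondroitin and dermatan sulfate chains, 2 were higher in WT and 1 in KO, with 0 lower, where 9.41% and 7.15% of all genes were higher. Csgalnact1, which starts chondroitin chains (on the array as 4732435N03Rik), rose by 1.64 and 1.66, and Dsel, a dermatan sulfate epimerase, by 1.09 in WT. Chst11, a chondroitin sulfotransferase, had a genotype difference of -1.66 at low density, and Chpf, a chondroitin polymerizing factor (D1Bwg1363e), of 1.17 and Chst12 of 1.41 at high density. For keratan sulfate, 0 of 4 genes tested changed with density in either genotype. Chst1, the keratan sulfate sulfotransferase, differed by -5.76 and -6.23 between genotypes at low and high density, with 1 of 2 KO channels well above background at each. Chst2, a related sulfotransferase, was at least 2.94-fold higher on the KO arrays at low density and 1.98 higher on the log2 scale at high density, where 1 of 2 WT channels was well above background.

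Among ligands, receptors and processing enzymes of the SLRPs, 6 of 18 tested were higher and 2 lower in WT, and 7 of 17 higher and 1 lower in KO. Over all genes tested the shares were 9.41% higher and 6.09% lower in WT, and 7.15% and 3.88% in KO. Tlr2, a receptor for biglycan, rose by 2.78 in WT and 2.12 in KO, and Tgfbr2, a TGF-beta receptor, by 1.69 and 1.4. Mmp2, a protease that cleaves decorin, rose by 1.5 and 1.77 and was lower on the KO arrays at both densities (-1.82 and -1.56). Tll1, a protease related to the one that matures biglycan, fell by at least 5.67-fold in WT and gave -1.55 in KO. The TGF-beta ligands parted: Tgfb2 rose by 2.28 in WT and gave -0.20 in KO, whereas Tgfb3 fell by 1.86 in WT and rose by 1.31 in KO. Egfr, a receptor that decorin binds, rose by 2.30 in KO, gave 0.47 in WT, and differed by -2.75 between genotypes at low density. Wisp1, a matricellular protein that binds decorin and biglycan, was 2.24 higher on the KO arrays at low density.

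**Figure D4:**
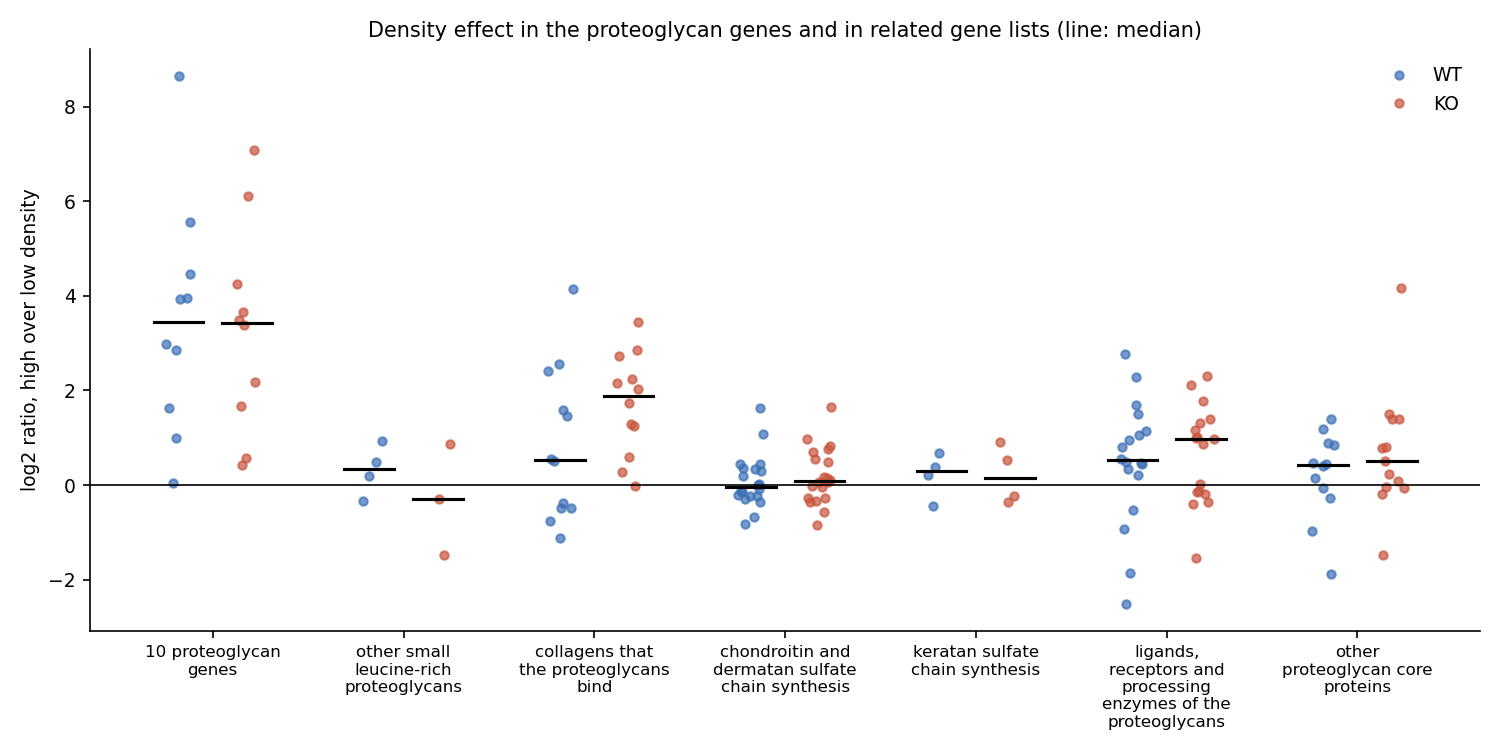
Log2 ratio of high over low density for the 10 SLRP genes and for tested genes of 6 related lists, in WT and KO, with a line at each median; points are genes, not replicates. The SLRP medians (3.46 and 3.43) lie above those of the collagens (0.53 and 1.88), and the chain synthesis medians lie between -0.037 and 0.31.

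Markers of other cell types moved with genotype in places. The summed intensity of 7 macrophage markers was 540 to 630 over the WT channels, 1600 and 1910 in KO at low density and 4450 and 5560 in KO at high density. The rise came with Lyzs (lysozyme, now Lyz2), at least 14.9-fold higher on the KO arrays at low density, while Emr1, a macrophage marker, and Ptprc and Itgam, which other leukocytes carry too, were above background in no channel and Aif1 in 1 of 8. Of the other macrophage markers, Cd68 was well above background in all 8 channels, with genotype differences of -0.10 and -0.38 at low and high density, and Csf1r in 6, with 0.43 at low density and at least 1.48-fold higher in KO at high density, where neither WT channel was well above background. The 10 fibroblast markers summed to between 443000 and 540000 over the WT channels and to between 446000 and 738000 over the KO channels. The 5 endothelial markers measured on all arrays summed to 316 to 359 and the 6 epithelial markers to 414 to 508 over all channels. Pdgfra, a fibroblast marker, had a genotype difference of 3.10 at high density and of 4.46 at low density, where only 1 of 2 WT channels was well above background. Of 9 fibroblast markers tested at low density, 1 was higher (Pdgfra) and 1 lower (Fn1, -1.30), beside 7.32% and 8.36% of all genes. Of 10 tested at high density, 3 were higher, among them Fn1 (1.33), and 1 lower (S100a4, -1.29), beside 6.75% and 7.78%. Of 5 tendon markers, Scx, a tendon transcription factor, differed by -3.61 and -6.56 between genotypes, while at high density Mkx (1.38) and Tnc (1.84) were higher on the KO arrays and Tnmd at least 2.74-fold higher. Their summed intensity was 3010 to 6620 in KO and 7510 to 17100 in WT. In WT at high density this sum was mainly Scx, at a log2 level of 13.75 against 9.93 for Tnc and 9.89 for Mkx. Of 7 bone markers, Spp1, osteopontin, differed by -2.46 and -5.22 and Runx2, a bone transcription factor, by 0.60 and 0.76, and these were the only ones well above background in all channels. The bone markers summed to between 2640 and 12200 in KO and between 18300 and 56100 in WT. The WT sum was mainly Spp1, at log2 levels of 15.68 and 14.26 at low and high density against 9.90 and 10.04 for Runx2. The 7 cartilage markers summed to 7240 to 8410 in WT, 1810 and 2210 in KO at low density, and 6290 and 8930 in KO at high density. Of them Col2a1 differed by -3.22 and 0.12, and the low density gap in the sum came with it (log2 level 12.79 in WT, 9.57 in KO). Sox9, a cartilage transcription factor, differed by 0.45 and -0.14. Comp, a cartilage and tendon matrix protein, differed by -0.67 and -1.51, with 1 of 2 KO channels well above background at each density. The part of these markers in the SLRP differences was not tested, and fewer cells of a kind and less RNA per cell cannot be told apart in such cultures.

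For the 7 genes well above background in all channels, the genes with the most similar course over the 4 cultures were sought among 12992 genes, by the root mean square difference of centred log2 levels. The nearest to Lum was Penk1 (proenkephalin, 1.34), followed by Mfap4 (1.87) and Lrrn3 (1.88), none of them close. Penk1 was also the nearest to Dcn (1.04), before Lama4 and Lrrc17 (both 1.11). Nearest to Ogn were Itm2a (0.38), Lama4 (0.46) and Lrrc17 (0.48). Fmod lay nearest to Odz4 (teneurin 4, 0.16), Gulp1 and Lgals3bp (both 0.19). Omd lay nearest to Odz3 (teneurin 3, 0.14), Fbn2 (0.21) and Lgr5 (0.22), and Prelp to Bdh2 (0.11), Kctd12 (0.17) and Hspa12b (0.19). Bgn, whose levels spanned a narrow range, lay nearest to D230012E17Rik (0.025), Fign (0.040) and Adcy1 (0.054). Among these 7 genes themselves the most similar pairs were Ogn with Prelp (0.98), Fmod with Prelp (1.09) and Bgn with Prelp (1.13). With 4 cultures such likeness is a description.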

How the data were processed

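The labels gave the genotype, density and dye of every channel. Their source names have LAT2 in place of Lats2, the name in the genotype field, which was followed. Per the file headers, the authors extracted the arrays with Agilent Feature Extraction. Each deposited scanner file holds mean spot and local background intensity per channel, quality flags, processed signal intensity and a log10 ratio of Cy5 to Cy3. The deposited series matrix holds the same log10 ratio, rounded and turned to high over low density. Here raw intensity was corrected by limma's normexp (offset 50), normalized by loess, averaged over features of a probe and, for genotype values, scaled between arrays (Aquantile) and compared within a dye. Such an offset shrinks the ratios of dim probes. Control and flagged features were left out. A density contrast took probes well above background on both channels of 1 density or more, a genotype contrast likewise of 1 genotype or more. Where a side was not well above background, its level was the higher of its own and the lowest well-above-background signal of that channel, which gives the "at least" folds.

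R 4.3.3 with limma 3.58.1 and Python 3.11.15 with pandas 2.3.3 were used. The size rule was run on arrays simulated from 1 WT channel, with 400 brighter probes changed by a known size in the density contrasts. It recovered 99.8% of them for WT and 99.2% for KO. No change was planted in dim probes or in the genotype contrasts, so recovery there was not tested. With 1 replicate per genotype no test was possible, and no p-value is given. The genes, lists and rules were chosen with earlier results of these data known: named were the 10 genes, up to 3 changed genes per list and contrast with the widest difference, the nearest neighbours, the 3 most similar genes, and Lats2. Others (Optc, Btg1, members of lists under the rule's size, and cell type markers such as Pdgfra, Scx, Spp1 and Lyzs) were named after their values were seen. Symbols are those of the array annotation, and current names came from RefSeq.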

Additional observations from a re-analysis of the deposited data

Results flagged for a closer look

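No group held 4 samples or more, so no test for a sample far from the others was possible. Screened were the SLRP genes, the widest-changed genes of the related lists, the genes of similar course, Lats2, and some markers, neighbours and other list genes. Not every marker named above was among them. Listed here are those, tested in both contrasts compared, in which both arrays, or both dyes, pointed one way in one condition and both the opposite way in the other. None of these differences was tested.

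For the density effect, KO minus WT on the log2 scale, Col2a1 differed by 3.34, Tgfb3 by 3.18, Col5a1 by 2.41, Gpc1 by 1.56, Chst11 by 1.12, Col5a2 by 1.04 and Chpf (D1Bwg1363e) by 0.91, each with a fall or a value under 0 in WT and a value above 0 in KO. Tgfb2 differed by -2.47, Wisp1 by -1.31 and Sdc3 by -0.60, each above 0 in WT and below 0 in KO. Of the markers and neighbouring genes, the tendon transcription factor Scx differed by -2.96, from 2.09 in WT to -0.86 in KO, and Tnc by 2.77, from -1.98 to 0.79. Btg2, next to Fmod, differed by -1.70, from 0.44 to -1.26, Tsku by -0.49 and Cd68 by -0.28.

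For KO over WT, high minus low density, Fmod changed by -2.28, from 0.65 to -1.63, and Lum by -1.58, from 0.12 to -1.46. Tgfb2 changed by -2.47, Vcan by -1.44 and Dsel by -0.55, also from above to below 0. From below to above 0 went Tgfb3, by 3.18, Col5a1, by 2.41, Col1a2, by 1.69, Gpc1, by 1.56, and Tll1, by 0.97, the last of these resting on background signal, since neither WT high density channel was well above background. Among markers and neighbouring genes, Tnc went from -0.93 to 1.84, a change of 2.77, Btg2 from 1.41 to -0.29, a change of -1.70, and Sox9 from 0.45 to -0.14, a change of -0.59. Col1a1 went from -0.73 to 0.93, a change of 1.66, and Tsku from 0.32 to -0.17, a change of -0.49. Of genes with a course like that of Lum or Fmod, Lrrn3 changed by -2.57, Odz4 by -1.88, Lgals3bp by -1.77 and Gulp1 by -1.66, all from above to below 0.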

How the results depend on the processing

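The alternatives were median centring, a normexp offset of 16, Agilent's processed signals, no filter on dim probes, a filter on every channel, the mean over probes, a 1.4-fold size, leaving out each array, other scaling between arrays and the series matrix values. No SLRP value that was counted as changed turned its sign under any of them. Of 116 alternative counts of SLRP genes, 114 stayed within 1.5 times the count given. The exceptions came from requiring every channel to be well above background, which left fewer genes tested: 5 SLRP genes were then higher with density in WT and 1 had a larger density effect in KO (Omd). Leaving out 1 array gave 8 to 9 SLRP genes higher in WT and 8 in KO, and an array left out of a genotype contrast took with it the array of the same dye order. Over all genes, processed signals counted 2308 as higher and 1642 as lower in WT against 1400 and 906, and 1995 and 1224 in KO against 1104 and 599. With a 1.4-fold size these counts were 3494 and 2621 in WT and 3325 and 2348 in KO. On processed signals the lower bounds were larger: 8.52-fold and 54.4-fold for Kera in WT and KO, 82.2-fold and 16.7-fold for Epyc, and 67.9-fold (density, WT) and 95.9-fold (genotype, low density) for Aspn. Some other values for Lum, Omd, Dcn, Ogn, Prelp and Aspn stand beside their results. On processed signals the low density genotype difference of Omd was 4.42 in place of 2.81. The cause was not tested. Genes not well above background have only such bounds, so the genotype difference of Kera and Epyc at low density could not be given. The t-test of the methods was not run for lack of replicates, nor slide as a block, since no slide held both genotypes. No paired analysis was possible because the replicate numbers mark dye order and there is 1 replicate per genotype.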

Other observations

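Other proteoglycan core proteins, outside the SLRP family, were counted in the same way. Of 12 tested in WT, 2 were higher with density and 1 lower, and of 13 tested in KO, 4 were higher and 1 lower. Among all genes tested, 9.41% were higher and 6.09% lower in WT, and 7.15% and 3.88% in KO. Gpc3, glypican 3 of the cell surface, was not well above background on any WT channel and was at least 29.1-fold higher on the KO arrays at high density. Gpc3 rose by 4.16 on the log2 scale with density in KO. Vcan, versican, rose by 1.4 in WT and gave -0.039 in KO. Cspg4, a surface proteoglycan of pericytes and fibroblasts, fell by 1.89 in WT and by 1.48 in KO. The syndecans Sdc3 and Sdc4 were lower on the KO arrays at both densities, with log2 differences of -1.03 and -1.63 for Sdc3 and of -1.92 and -1.01 for Sdc4.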
